A study of Sus scrofa with 9 samples.

Results

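Blood taken from miniature pigs 6 h after a dose of azide was compared with blood taken before feeding, on 6 of the 9 arrays of the series. The arrays were chosen by their titles, 3 for each of the groups. All 43596 usable probes of the array were described, not only the 3004 with a gene symbol. By the array's own text, 10983 probes carried a description that names a protein, 25335 named only a cDNA clone or library, and 7278 were listed as unknown. A probe here is a DNA oligonucleotide on the array that captures labelled RNA of matching sequence.

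The animals were male, specific pathogen free Clawn miniature pigs, a small laboratory breed. The age was given as 7 months in one field and as 7 weeks in another. The group before feeding received no azide and its time point is 0 h. The group at 6 h had received azide by mouth at 300 µg/kg, which the design text puts at 0.01 of the median lethal dose, with the salt not stated. PAXgene tubes, whose additive stabilises RNA as blood is drawn, held the whole blood, and 0.5 µg of RNA per sample was copied into Cy3-labelled cRNA. No pigs that were fed without azide were sampled at 6 h, so time, meal, repeated bleeding and azide cannot be told apart. Whether a replicate number stands for one pig across the time points is not stated. The p-values therefore measure the spread between these samples.

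Azide inhibits cytochrome c oxidase, which hands electrons to oxygen at the end of the respiratory chain of mitochondria, and with it the making of ATP by respiration. RNA of whole blood comes from the leukocytes, platelets and young red cells together. Neutrophils and monocytes carry receptors for microbial products, lectins and S100 proteins, and they change their RNA within hours of an inflammatory or endocrine signal. Lymphocytes carry antigen receptors and are known for strong expression of ribosomal protein genes. In such bulk samples, fewer cells of a type and less RNA per cell cannot be told apart.

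Values below are log2 signal minus the 75th percentile of the array, so 0 is a fairly bright spot and a step of 1 is a doubling. A probe was tested where it was well above background, by the scanner software's own call, on all 3 arrays of at least 1 group, and 19783 probes were. The test was limma across all 9 arrays, with Benjamini-Hochberg adjustment over all 19783 probes and a threshold of 0.05. A probe is said not to overlap where all 3 arrays at 6 h lie above, or all 3 lie below, all 3 arrays before feeding. The gap between the nearest arrays of the groups is called the separation.

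Between 39.9% and 46.6% of spots were well above background before feeding and between 42.4% and 47.8% at 6 h, and no spot was saturated. Precision is limited by having 3 arrays a group. The 9 arrays carry 3 scan times, each holding 1 group, so the scan and the group cannot be told apart. Replicate 3 at 6 h stood farthest from the arrays before feeding, with correlations across probes of 0.883 to 0.916, against 0.919 to 0.963 for replicates 1 and 2. The SD over probes of the difference from the mean before feeding was 0.816 in replicate 1, 0.671 in replicate 2 and 1.15 in replicate 3. Of the blood cell markers listed for this work, the neutrophil list had 1 of 8 genes on the array with a name, lactoferrin, whose scaled linear signal was 8.20 to 9.94 before feeding and 39 to 617 at 6 h. The 4 named monocyte markers of 5 summed to 78.7 to 94.9 before feeding and 185 to 454 at 6 h. The 5 T cell markers of 6 summed to 60.6 to 100.4 and then 16.1 to 61.2, and the 2 natural killer cell markers of 5 to 3.65 to 8.98 and then 1.08 to 4.19. The 1 B cell marker of 5 lay at 0.698 to 1.07 and then 0.465 to 1.07, the 3 platelet markers of 5 at 53.3 to 237 and then 109 to 242, and the 1 eosinophil and basophil marker of 3 at 2.85 to 3.77 and then 1.41 to 4.70. Genes within a sum did not all move alike. Of the monocyte markers 3 were higher at 6 h and 1 lower, of the T cell markers 1 was higher and 4 lower, and of the platelet markers 2 were higher and 1 lower. The 1 named red cell marker of 4, haemoglobin alpha, was not well above background on any of the 6 arrays. Of 3 markers of tissues other than blood, COL1A1 was above background on none and no other was so on all 6, with sums of 0.307 to 0.351 and then 0.243 to 0.464. The part of these shifts in the results below was not tested.

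In limma 5 probes rose and 0 fell, 0.0253% and 0% of those tested, and none of the 5 has a protein name. Without adjustment, 5050 probes had a p under 0.05. The first of the 5 is listed as unknown and the other 4 by cDNA clones. Their sequences are shown because nothing else identifies them, with no position in the genome, since no pig genome was used here. They are given as on the array, 5′ to 3′.

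A_72_P041196: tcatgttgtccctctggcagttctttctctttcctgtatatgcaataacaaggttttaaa
A_72_P117366: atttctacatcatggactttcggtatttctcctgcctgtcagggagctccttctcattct
A_72_P144596: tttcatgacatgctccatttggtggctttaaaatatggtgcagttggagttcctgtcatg
A_72_P188051: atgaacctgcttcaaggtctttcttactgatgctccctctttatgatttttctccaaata
A_72_P225297: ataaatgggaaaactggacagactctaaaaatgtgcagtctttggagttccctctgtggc

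The 5 sequences share no run longer than 10 bases with each other on either strand, and none of them shares a run of 20 bases with any other probe. Their GC content was 36.7% to 45.0%, around the median of 40% over tested probes. All 5 were faint, and before feeding none of them was well above background on an array. A_72_P188051 lay at -4.16, -4.10 and -4.14 before feeding and at -2.06, -1.83 and -1.76 at 6 h. A_72_P117366 lay at -4.69, -4.39 and -5.09 and then at -2.13, -1.49 and -2.25. Each was above background on all 3 arrays at 6 h, and the groups stood apart by 2.04 and 2.14. A_72_P225297 rose from -3.61, -3.74 and -3.84 to -1.49, -1.86 and -1.5. A_72_P144596 rose from -5.40, -4.54 and -5.31 to -2.59, -2.58 and -2.12, and A_72_P041196 from -5.23, -4.44 and -4.75 to -2.32, -2.71 and -1.97. The last of these and A_72_P144596 passed background on only 2 arrays at 6 h, and entered the test through the 24 h arrays, all 3 of which were above background. The other 3 entered through groups after feeding, so none of the 5 entered through the group before feeding, and no array at 6 h overlapped one before feeding.

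The fitted log2 increases were 2.25 ± 0.24 (SE, n = 3 against 3) for A_72_P188051, 2.77 ± 0.35 for A_72_P117366, 2.11 ± 0.25 for A_72_P225297, 2.66 ± 0.32 for A_72_P144596 and 2.48 ± 0.31 for A_72_P041196, each with an adjusted p of 0.0343 in limma. Since the level before feeding is only a bound, the measured increases were at least 1.90-fold, 1.81-fold and 2.29-fold for the first 3 in this order. For A_72_P144596 and A_72_P041196 the same ratios were 1.31 and 1.40. These 2 are no strict bounds, since each probe passed background on only 2 arrays at 6 h. All of the ratios compare the mean at 6 h with the lowest signal that counted as well above background on each array before feeding. No probe passed when background was corrected by normexp, when the 24 h arrays were left out of the fit or when probes had to be above background on all 9 arrays. Nor did any pass without replicate 1 or 3 of the group before feeding, replicate 1 or 3 at 6 h, or replicate 1 or 2 at 24 h. Without replicate 2 at 6 h, 2396 probes passed, 1443 higher and 953 lower, without replicate 3 at 24 h 25 passed and without replicate 2 before feeding 6.

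The arrays of the groups did not overlap for 3169 probes with higher values and 2093 with lower values at 6 h, 16% and 10.6% of those tested and 26.6% in either direction. The share of higher among these was 60.2% and depended on the scaling. It was 43.5% with arrays centred on the median, 50.5% after quantile normalization, 49.9% with normexp, 49.7% with the percentile taken over probes detected on all arrays, and 93.7% when arrays were centred on the spike-in controls. The median difference of all probes was 0.05, and spike-in centring moved it to 0.27, so the differences below are read against the median of all probes. The separation was 1 or more for 184 probes with higher values, 0.93%, and for 21 with lower values, 0.106%. Many of these were faint, since 85 of the higher and 18 of the lower were not well above background on all 6 arrays. Among probes that were, the counts were 99 higher and 3 lower. Probes could enter the test through the arrays at 6 h or 24 h alone, and the part of this in the counts was not tested.

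The 3 arrays at 6 h shared only part of what each showed alone. Relative to the mean before feeding, values were higher by more than 1 for 2324 probes in replicate 1, 1730 in replicate 2 and 3823 in replicate 3. All 3 shared 623 of the 5051 probes that were so in any of them. Values lower by more than 1 were found for 1644, 856 and 3011 probes, of which 115 of 4043 were shared. Shared shifts of this size were more often upward than downward on this scaling.

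What the description says about a probe went with its share of non-overlap. Probes that name a pig protein or a mammalian protein matched over at least 20% of its length, 3198 in all, had 19.1% higher and 8.91% lower, with a median difference of 0.13. Probes with a clone description, 11019 in all, had 16.4% higher and 9.86% lower, and the 3164 unknown probes had 12.8% and 12.6%. The 1347 tested probes named after a protein of another organism had 14% higher and 14.7% lower, close to unknown probes. Gene symbols covered 1880 tested probes, with 22.1% higher and 6.60% lower and a median of 0.25. The brightest of 4 equal bins of probes by signal had 21.8% higher and 8.61% lower, against 17.9% and 9.70% in the dimmest bin. Of the 184 probes separated by 1 or more and higher, 106 had only a clone description, 24 were unknown and 54 named a protein. Since short matches to distant organisms do not name a pig gene, the genes named below are pig entries or mammalian matches of at least 20%.

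**Figure D1:**
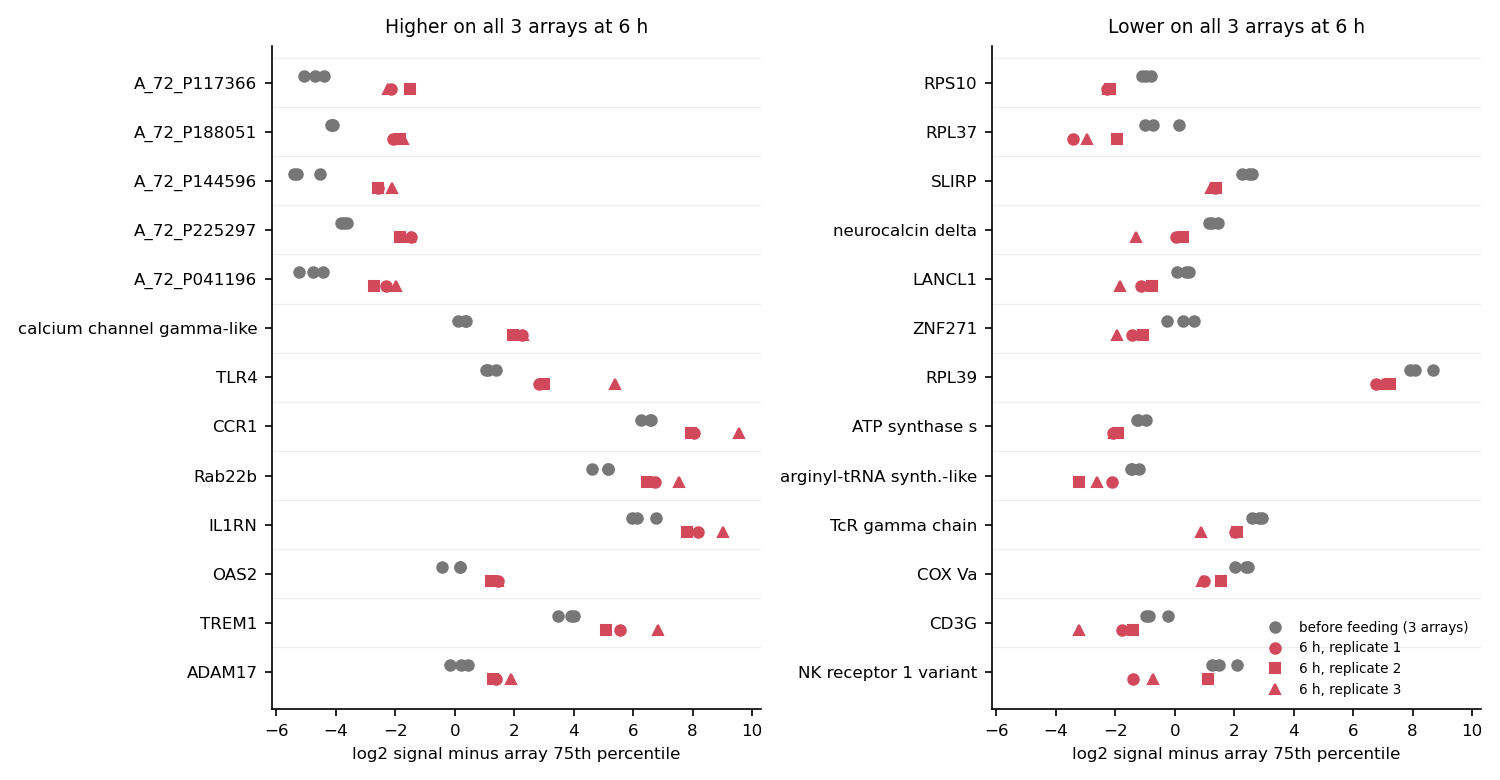
Log2 signal minus the 75th percentile of the array (horizontal axis) for selected probes that lie higher (left) or lower (right) on all 3 arrays at 6 h. Grey points are the 3 arrays before feeding, and red circles, squares and triangles are replicates 1, 2 and 3 at 6 h. The 5 unnamed probes that passed the limma threshold sit at -3.61 or below before feeding, CCR1 sits above 6, and the probe for ribosomal protein S10 lies lower at 6 h on all 3 arrays.

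Among single named proteins with a separation above 1, a few outside the immune classes follow. Rab22b, a small GTPase of membrane traffic, lay at 4.61, 5.15 and 5.16 before feeding and at 6.74, 6.45 and 7.54 at 6 h. The lowest array at 6 h was 1.29 above the highest before feeding. A probe described as a voltage-dependent calcium channel gamma-like subunit lay at 0.10, 0.36 and 0.37 and then at 2.25, 1.95 and 2.30, with a separation of 1.59. The gene for vanin 1 (VNN1), an enzyme that makes cysteamine, lay at 0.49, 0.82 and 0.75 and then at 2.02, 1.98 and 2.63. None of these passed, with adjusted p of 0.0597 for Rab22b, 0.06 for the channel subunit and 0.0699 for VNN1 in limma. The glycine receptor beta subunit (GLRB) and a protein described as Down syndrome critical region protein 6 were not above background on any array before feeding. Their values at 6 h were at least 3.39-fold and 1.83-fold higher, without passing the threshold.

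Across protein classes, the descriptions were sorted by the words they contain into 56 classes, each with at least 5 tested probes and 1719 probes in all. No class held a probe that passed. The median difference was above that of all probes in 37 classes and below it in 19. The level of a class on an array, here the median over its probes of the difference from the mean before feeding, did not overlap between the groups in 31 classes. Among the 38 classes with a positive median, replicate 3 at 6 h had the highest level in 20. Among the 18 with a negative median, it had the lowest in 6.

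**Figure D2:**
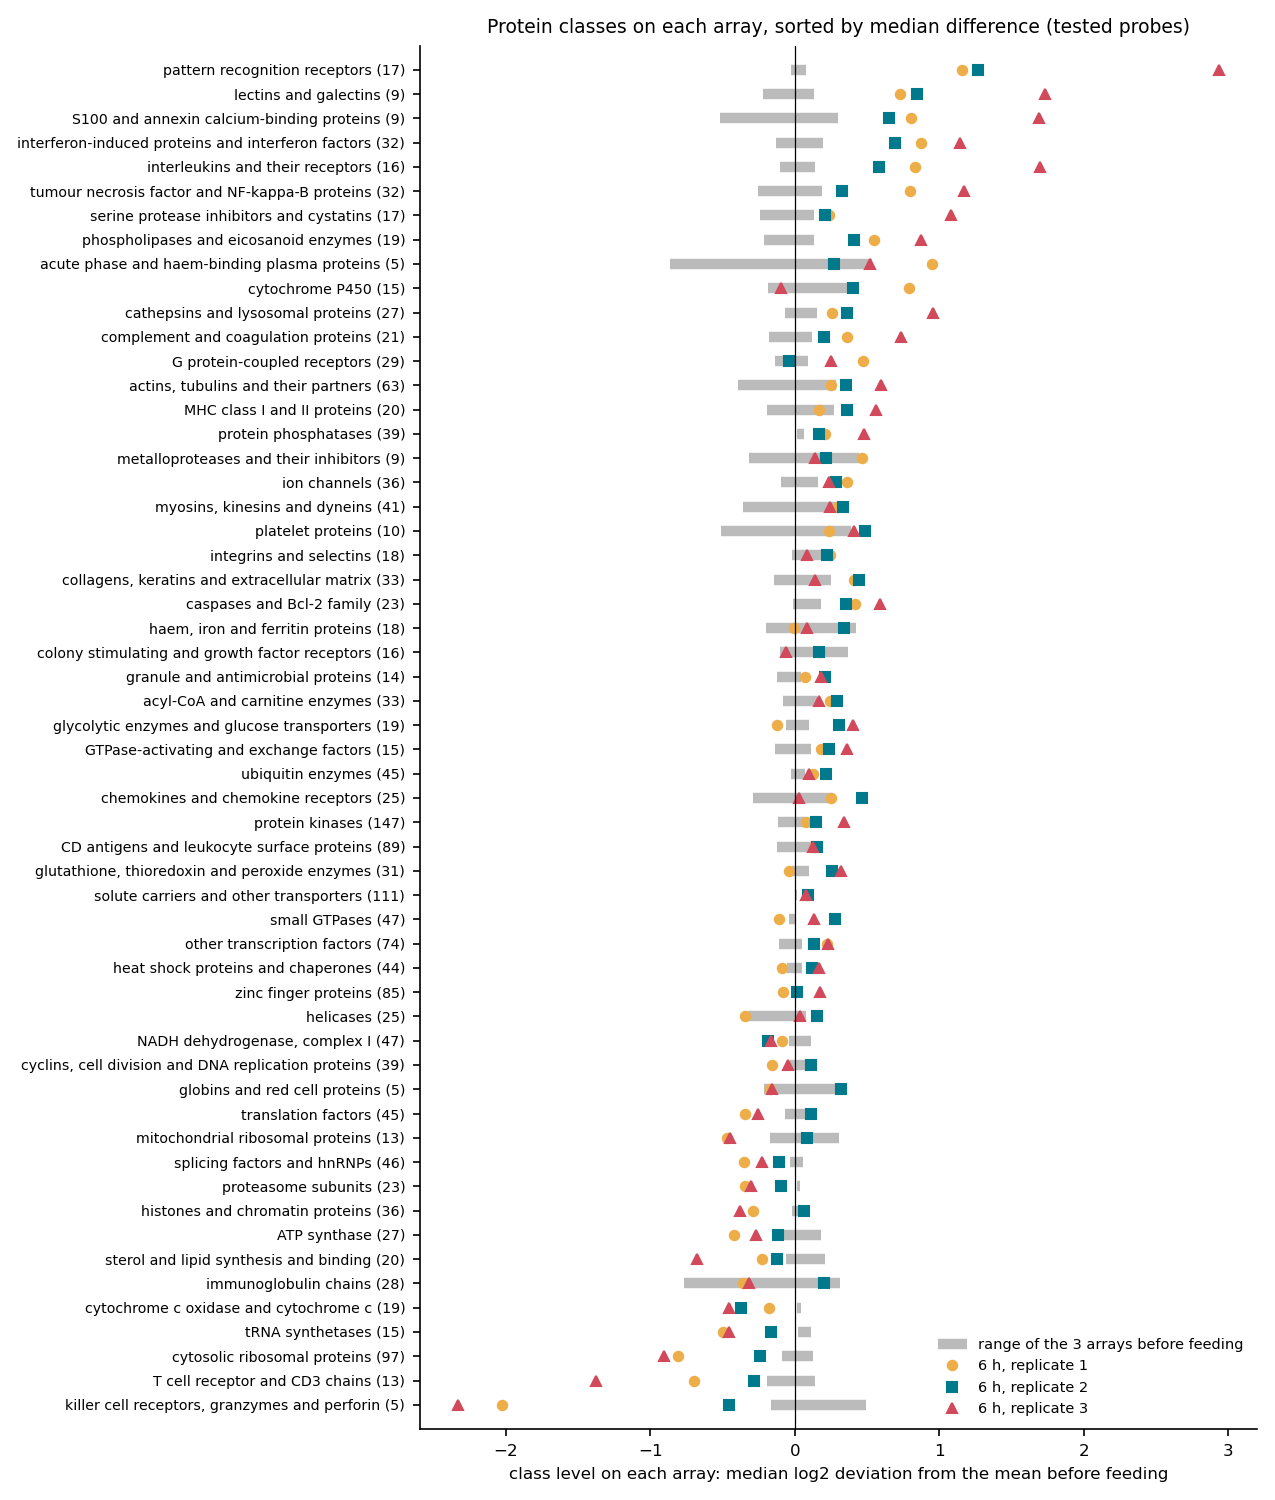
Level of each of the 56 protein classes on each array (horizontal axis), as the median over tested probes of the log2 difference from the mean before feeding, with the range of the 3 arrays before feeding as a grey bar and replicates 1, 2 and 3 at 6 h as a circle, a square and a triangle. Pattern recognition receptors reach 1.16, 1.27 and 2.94 at 6 h, and cytosolic ribosomal proteins lie at -0.81, -0.24 and -0.90.

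Receptors for microbial products and their partners had the highest class median, 1.60 over 17 tested probes. Of these, 13 had higher values at 6 h without overlap and 1 had lower values, 76.5% and 5.88% against the 16% and 10.6% of all probes. TLR4, the receptor for bacterial lipopolysaccharide, is represented by 4 probes. The brightest lay at 1.40, 1.05 and 1.11 before feeding and at 2.82, 2.99 and 5.40 at 6 h, a difference of 2.55 ± 0.63 (SE). The other 3 differed by 1.49, 2.36 and 2.78, and the groups of all 4 did not overlap. TREM1, a receptor that amplifies the signals of myeloid cells, lay at 3.46, 3.91 and 4.02 and then at 5.56, 5.09 and 6.84. TLR2, which binds bacterial lipoproteins, lay at 2.74, 3.12 and 2.78 and then at 4.74, 3.78 and 5.93. The adaptor MYD88, which most Toll-like receptors share, was above background on 1 array before feeding at -4.36, -2.61 and -2.16, and lay at 0.02, -1.59 and 1.64 at 6 h. Replicate 3 was the highest array at 6 h in each of these.

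The other Toll-like receptors were uneven. TLR7, which senses RNA inside plasmacytoid dendritic cells and B cells, had lower values, 1.14, 1.05 and 0.90 before feeding and 0.35, 0.59 and 0.01 at 6 h. TLR1 and TLR10 differed by -0.36 and -0.32 with overlapping groups, while TLR8 and TLR9 differed by 0.81 and 1.60 without overlap. None of the 17 probes passed, and the lowest adjusted p among those named here was 0.0755 in limma, for TREM1.

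Lectins and S100 or annexin proteins had class medians of 1.19 each, over 9 tested probes each. Without overlap 5 and 6 were higher and 0 lower, 55.6% and 66.7% against 16% of all probes. The lectin median was 0.43 with normexp. Among the lectins, 3 probes for galectin 3, which macrophages release, and those for CLEC4E and CLEC5A, receptors of myeloid cells, made up the 5. The natural killer lectins KLRK1 and KLRE1 differed by -1.98 and -1.77 with overlapping groups. CLEC4E, which binds fungal and mycobacterial glycolipids, lay at 3.18, 2.41 and 2.76 before feeding and at 3.51, 3.88 and 5.2 at 6 h. S100A11, a calcium-binding protein also called calgizzarin, had 4 probes between 1.51 and 2.01. One of them lay at 3.29, 3.95 and 4.19 before feeding and at 5.99, 4.46 and 6.86 at 6 h. S100A6 had the tightest values, 9.0, 8.86 and 8.97 and then 9.56, 9.60 and 9.68, a difference of 0.67 ± 0.27 (SE) that did not overlap. S100A14 differed by -0.89 ± 0.37 with overlap. Annexin A2, a membrane-binding partner of S100 proteins, differed by 1.19 ± 0.35.

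Interleukins and their receptors had a median of 1.04 over 16 probes, 14 with higher values. Without overlap 10 were higher and 0 lower, 62.5% and 0% against 16% and 10.6% of all probes. This class was found by words in the description and so holds CASP1 and caspase-13, which cleave interleukin 1. The interleukin 1 receptor antagonist, a secreted inhibitor, lay at 5.97, 6.76 and 6.13 and then at 8.18, 7.82 and 9.02. Receptor chains were among the higher ones. IL2RG, the chain shared by several lymphocyte cytokine receptors, lay at -1.99, -1.21 and -1.15 and then at 0.36, -0.41 and 1.08. IL4R lay at 5.10, 5.93 and 5.90 and then at 6.64, 7.29 and 8.21, and IL6R differed by 1.72 ± 0.48 with a separation of 0.10. Among ligands, IL16 and IL18 differed by 0.88 and 1.15 without overlap, and IL10, IL27 and interleukin 8 by 1.07, 1.00 and 0.78 with overlap. IL2RA, the activation-induced chain of the interleukin 2 receptor, differed by -0.56 with overlap.

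Proteins of the tumour necrosis factor and NF-kappa-B pathway had a median of 0.86 over 32 probes. Without overlap 12 were higher and 0 lower, 37.5% and 0% against 16% and 10.6% of all probes. TNFSF13B, a B cell survival factor made by myeloid cells, lay at -1.16, -0.72 and -0.92 before feeding and at 0.92, 0.19 and 2.31 at 6 h. TNFRSF1A, the main receptor for tumour necrosis factor, lay at 5.47, 6.08 and 6.18 and then at 7.37, 6.92 and 8.69. Tumour necrosis factor itself had 2 probes, which differed by 0.54 and 0.58 without overlap. ADAM17, the protease that sheds tumour necrosis factor from cells, lay at 0.20, -0.18 and 0.44 and then at 1.40, 1.27 and 1.90. TNFSF13B, TNFRSF1A and ADAM17 lay higher on each array at 6 h than on any before feeding. Their adjusted p was 0.0796, 0.0805 and 0.0772 in limma.

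Interferon-induced proteins and interferon factors had a median of 1.08 over 32 probes, with 16 higher without overlap and 1 lower, 50% and 3.13%. Its levels were less uneven than those of the pattern recognition receptors, with values of 0.87, 0.69 and 1.14 at 6 h. OAS2, which makes the second messenger that activates RNase L, lay at 0.16, 0.16 and -0.43 before feeding and at 1.44, 1.23 and 1.45 at 6 h. OAS1 differed by 1.38 ± 0.52 and the receptor chain IFNAR1 by 1.60 ± 0.44, both without overlap. MX1, a classical antiviral target of interferon, lay at 6.27, 5.30 and 4.20 and then at 6.8, 6.64 and 4.42, with overlapping groups. A probe described as ISG20L1 differed by -0.63 ± 0.27. The median of the class was 0.79 after quantile normalization and 0.61 after normexp.

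Chemokines and their receptors split, with a median of 0.14 over 25 probes. Without overlap 7 were higher and 0 lower, 28% and 0% against 16% and 10.6% of all probes. CCR1, a receptor of monocytes and neutrophils, lay at 6.59, 6.57 and 6.27 before feeding and at 8.05, 7.95 and 9.55 at 6 h. CCRL2, a receptor that presents chemerin, lay at 1.54, 1.96 and 1.61 and then at 2.92, 2.89 and 3.55. CCR7, which guides lymphocytes to lymph nodes, differed by -0.76 ± 0.37 with overlap. CXCL10, a ligand induced by interferon gamma, lay at 1.83, -0.82 and -1.08 and then at -2.43, -0.62 and -2.49, again with overlap. The class median was -0.20 without replicate 1 before feeding, -0.025 without replicate 2 at 6 h, 0.54 without replicate 2 before feeding, and 0.23 and 0.31 without replicates 1 and 3 at 6 h.

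Lysosomal and lipid mediator classes lay above the median of all probes, and adhesion proteins depended on single arrays. Integrins and selectins, which hold leukocytes to vessel walls, had 6 probes higher and 3 lower without overlap among 18. These are 33.3% and 16.7%, against 16% and 10.6% of all probes. Their median of 0.30 was 0.54 and 0.10 without replicates 2 and 3 before feeding and 0.19 without replicate 2 at 6 h. It turned to -0.12 without replicate 1 before feeding. Among the lower ones, integrin alpha-V lay at -0.13, -0.13 and -0.31 before feeding and at -1.18, -0.93 and -1.18 at 6 h. Cathepsins and lysosomal proteins had a median of 0.45 over 27 probes, with 9 higher and 1 lower without overlap, 33.3% and 3.70%. Both probes for subunit C of the vacuolar proton pump, which acidifies lysosomes, lay higher by 1.40 and 1.47, and LYST, a regulator of lysosome size, by 1.19. Phospholipases and eicosanoid enzymes had a median of 0.66 over 19 probes, and 0.34 without replicate 2 before feeding. Without overlap 7 were higher and 1 lower, 36.8% and 5.26%. ALOX15, a lipoxygenase of eosinophils and macrophages, lay at 5.70, 5.57 and 6.03 and then at 7.19, 6.8 and 9.14, whereas PTGS2, the inducible prostaglandin synthase, differed by 0.66 ± 0.52 with overlap.

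Further classes had modestly higher medians, some with shares without overlap not far from the 16% higher and 10.6% lower of all probes. Serine protease inhibitors and cystatins had a median of 0.80 over 17 probes, and 0.39 without replicate 3 at 6 h. Without overlap 6 were higher and 1 lower, 35.3% and 5.88%. The higher ones included SLPI, which shields tissue from neutrophil elastase, and the lower one was SERPINB9, an inhibitor of granzyme B, at -1.06. MHC class I and II proteins had 19 of 20 probes with higher values, but a median of only 0.37, and 0.23 without replicate 3 at 6 h. Without overlap 4 were higher and 0 lower, 20% and 0%, and the level of the class overlapped between the groups. Actins, tubulins and their partners had a median of 0.38 over 63 probes with 14 higher and 2 lower, 22.2% and 3.17%. Myosins, kinesins and dyneins had a median of 0.32 over 41 with 13 higher and 0 lower, 31.7% and 0%. Without replicate 1 before feeding these medians were 0.14 and 0.10, that of myosins was 0.54 without replicate 2 before feeding, and the levels of both classes overlapped between the groups. Caspases and Bcl-2 proteins had a median of 0.27, which was 0.43 without replicate 1 before feeding and 0.47 without replicate 1 at 6 h. MCL1, a survival protein on which neutrophils depend, lay at 3.19, 3.38 and 3.04 and then at 4.68, 4.37 and 5.77. CPT1A, which admits fatty acids to mitochondria, lay at 2.71, 3.22 and 3.28 and then at 4.30, 4.55 and 5.41.

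Many large classes lay close to all tested probes, of which 16% were higher and 10.6% lower without overlap. The class medians moved with single arrays, over the ranges given. Zinc finger proteins, 85 tested probes, had 12 higher and 12 lower without overlap, 14.1% each. Their median was -0.01 (-0.071 to 0.079 with an array left out). Heat shock proteins and chaperones, 44 probes, had 6 higher and 3 lower, 13.6% and 6.82%, and a median of 0.01 (-0.017 to 0.16). That median hides single members far from it, since the differences ran from -0.92 to 4.53, 24 of them above 0 and 20 below. HSP90AA1 differed by 1.63 to 2.12 on 4 probes, not all without overlap, and HSPE1 by -0.40 to -0.32 on 3. Protein kinases, 147 probes, had 30 higher and 12 lower, 20.4% and 8.16%, with a median of 0.13 (0.0089 to 0.25). Granule and antimicrobial proteins had a median of 0.20 over 14 probes (0.014 to 0.46), with 3 higher and 1 lower, 21.4% and 7.14%. The high value of lactoferrin in that class was thus not shared by most of its probes. Glycolytic enzymes had a median of 0.17 (0.037 to 0.30).

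**Figure D3:**
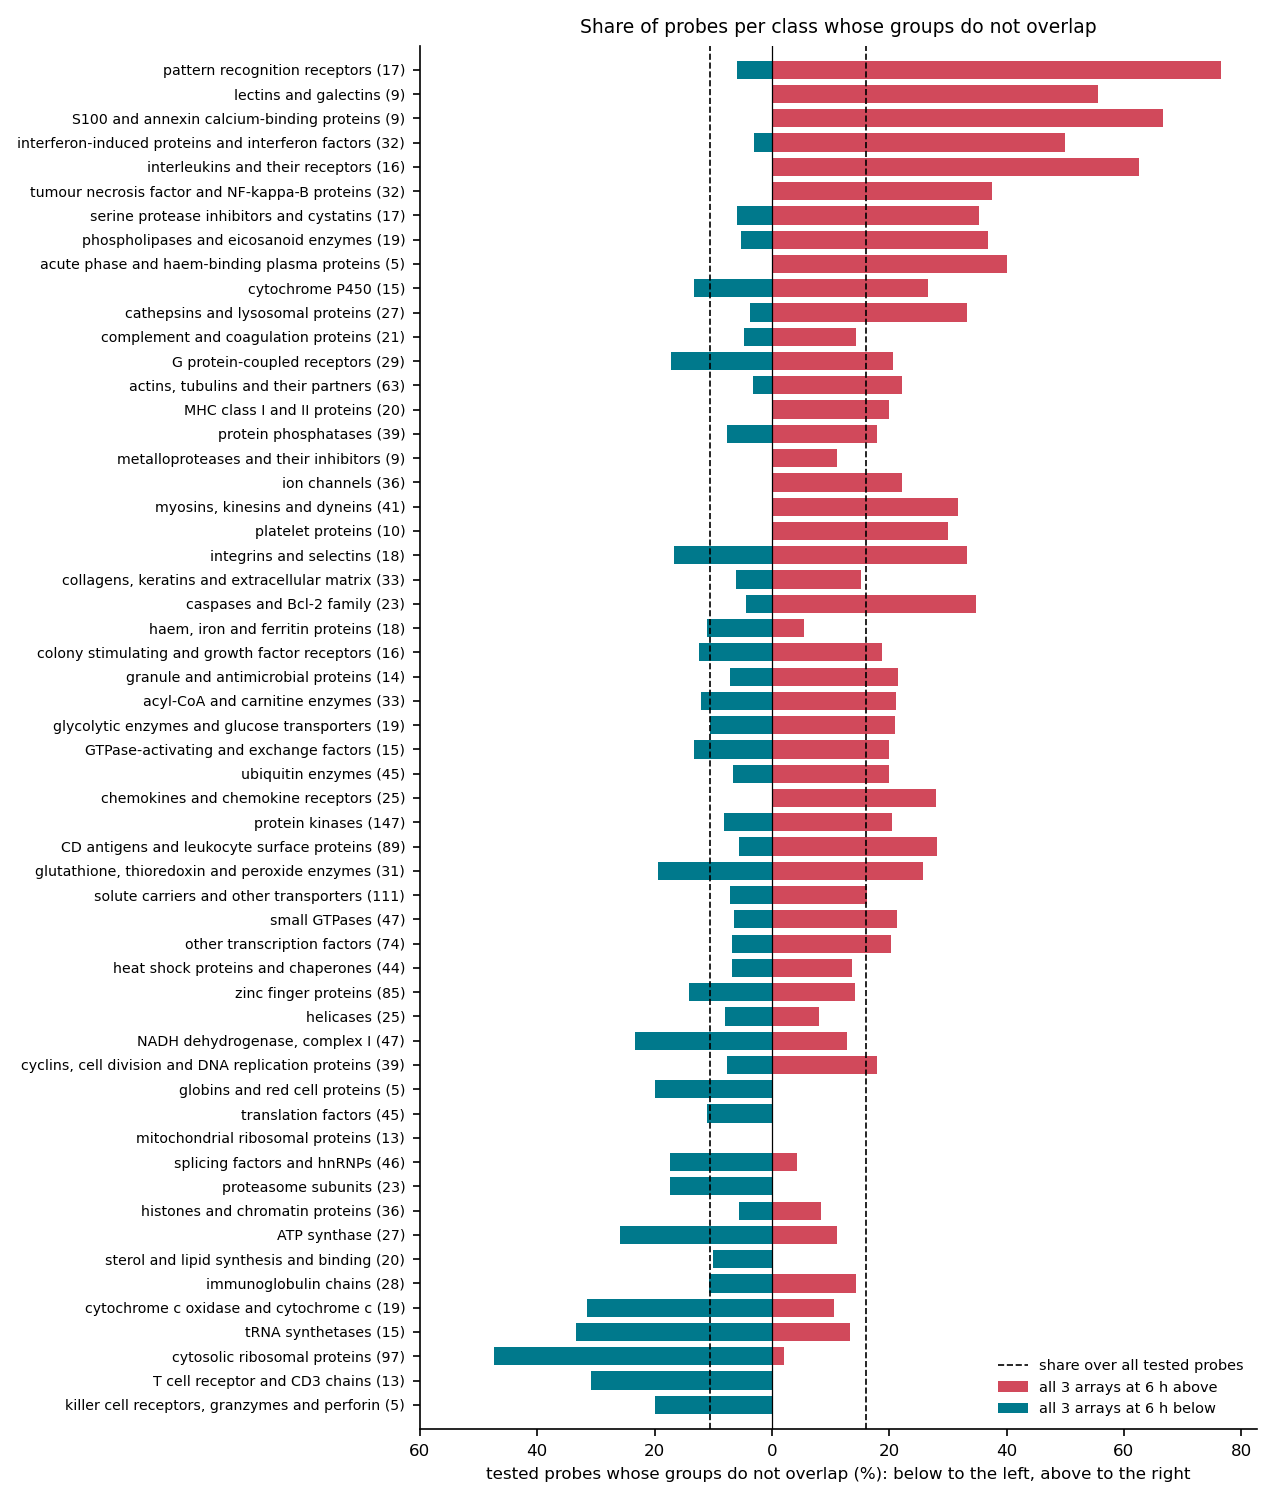
Percent of the tested probes of each class whose arrays do not overlap between the groups, to the right for higher and to the left for lower values at 6 h, with the shares of all tested probes, 16% and 10.6%, as dashed lines. Pattern recognition receptors reach 76.5% higher and cytosolic ribosomal proteins 47.4% lower.

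Ribosomal proteins were the largest class below the median of all probes. Of 97 tested probes 86 had lower values, 46 without overlap and lower and 2 higher, 47.4% and 2.06% against 10.6% and 16%. The class as sorted by words also held 12 probes for mitochondrial ribosomal proteins, of which 0 lay apart in either direction, with a median of -0.15. The other 85 had a median of -0.67 and held all 46, a share of 54.1%. With only pig or mammalian matches of at least 20%, 38 of 78 were lower without overlap and 0 were higher. The difference between these parts of the class was not tested.

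RPS10, a protein of the small subunit, lay at -0.81, -1.11 and -0.98 before feeding and at -2.29, -2.17 and -2.23 at 6 h. Its difference was -1.26 ± 0.24 (SE) with a separation of 1.06, and its adjusted p in limma was 0.06. RPL39, a small protein of the large subunit, was among the bright probes at 8.68, 7.92 and 8.10 and then at 6.77, 7.23 and 7.01. A probe for RPS24 was not above background on any array at 6 h, so its value before feeding was at least 3.68-fold higher. RPL37 had 3 probes, which differed by -2.25 ± 0.46, -1.17 and 0.61, so the probes of that protein disagree. The first of them was well above background on only 1 array at 6 h. Ribosomal protein genes have many processed copies in mammalian genomes, and cross-hybridisation of these probes was not tested. The class level was -0.81, -0.24 and -0.90 on the replicates at 6 h, smallest in replicate 2.

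The translation and RNA processing classes around them lay closer to the rest. Translation factors had 0 higher and 5 lower of 45 probes without overlap, 0% and 11.1% against 16% and 10.6% of all probes. Their median of -0.12 turned to 0.11 with spike-in centring. It was -0.30 and -0.28 without replicate 2 before feeding or at 6 h and -0.043 without replicate 1 at 6 h. The tRNA synthetases had a median of -0.43 over 15 probes, with 2 higher and 5 lower, 13.3% and 33.3%. An arginyl-tRNA synthetase-like probe lay at -1.20, -1.45 and -1.46 and then at -2.11, -3.23 and -2.62, while threonyl-tRNA synthetase differed by 0.71 ± 0.26. Splicing factors and hnRNPs had 2 higher and 8 lower of 46 probes, 4.35% and 17.4%. Their median of -0.19 was 0.04 with spike-in centring and -0.11 without replicate 1 at 6 h. SNRPN, a core protein of spliceosomal particles, lay at 2.37, 1.88 and 2.06 and then at 0.62, 1.51 and 0.15. Proteasome subunits had 17 of 23 probes with lower values, 4 without overlap, 17.4% against 10.6% of all probes. Their median of -0.21 turned to 0.02 with spike-in centring and was -0.11 and -0.38 without replicates 1 and 2 at 6 h.

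The respiratory chain holds the enzyme that azide blocks, and its classes lay below the median of all probes. Cytochrome c oxidase and cytochrome c, the target and its substrate, had a median of -0.41 over 19 probes, with 6 lower and 2 higher without overlap. All 5 pig or mammalian probes that the words of this class caught had lower values, with a median of -0.68. Of these, 1 did not overlap, 20%. That probe, for subunit Va, lay at 2.46, 2.03 and 2.40 before feeding and at 1.00, 1.55 and 0.92 at 6 h. ATP synthase, which makes ATP from the proton gradient, had a median of -0.28 over 27 probes, -0.44 and -0.46 without replicate 2 before feeding or at 6 h. Without overlap 7 were lower and 3 higher, 25.9% and 11.1%. The class mixed enzymes whose medians lay on opposite sides of 0. In the mitochondrial enzyme 10 of 10 mammalian probes had lower values, 5 without overlap, 50%, with a median of -0.58. The 4 probes of the vacuolar pump that the words of this class caught had a median of 0.84. Of these 3 had higher values and 1 had a lower value, at -0.27. The 2 that were higher without overlap, 50%, were both for subunit C. ATP synthase subunit s lay at -1.23, -0.98 and -1.26 and then at -2.08, -1.92 and -2.05.

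Complex I, which feeds electrons from NADH into the chain, had 11 lower and 6 higher of 47 probes without overlap, 23.4% and 12.8%. Its median was -0.12, and 0.11 with spike-in centring. It was -0.076 and -0.28 without replicates 2 and 3 at 6 h. Many of its probes are named after distant organisms. The 11 pig or mammalian ones had a median of -0.41, with 4 lower and 0 higher without overlap, 36.4% and 0%. SLIRP, which keeps mitochondrial messenger RNA stable, lay at 2.60, 2.27 and 2.51 before feeding and at 1.36, 1.37 and 1.22 at 6 h, with a separation of 0.89. Its difference was -1.14 ± 0.28 (SE), and its adjusted p in limma was 0.0787.

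Lymphocyte receptors had lower values. All 13 probes for T cell receptor and CD3 chains were lower, with a median of -0.78, and 4 did not overlap, 30.8% against 10.6% of all probes. A T cell receptor gamma chain probe lay at 2.62, 2.85 and 2.94 before feeding and at 2.04, 2.09 and 0.90 at 6 h. CD3G, a signalling chain of the receptor, lay at -0.23, -0.97 and -0.86 and then at -1.76, -1.40 and -3.21 by one probe, where 2 arrays at 6 h were above background. A second and brighter CD3G probe differed by -1.80 with overlap, through replicate 2 at 6 h. The class level was -0.70, -0.28 and -1.38, lowest in replicate 3, without which the median was -0.50.

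Killer cell receptors, granzymes and perforin had a median of -1.77 over 5 probes, 4 of them lower. Of the 5, 1 was lower without overlap, 20% against 10.6% of all probes. A killer cell receptor protein 1 variant lay at 1.24, 1.5 and 2.11 and then at -1.39, 1.12 and -0.72. Replicate 2 at 6 h lay nearest to the values before feeding in this class, whose level was -2.03, -0.46 and -2.33. Immunoglobulin chains had 4 of 28 probes higher and 3 lower without overlap, 14.3% and 10.7%, close to the shares of all probes. Their median of -0.39 was -0.092 and -0.16 without replicates 2 and 3 before feeding. Neurocalcin delta, a calcium sensor, lay at 1.16, 1.44 and 1.25 and then at 0.06, 0.29 and -1.32, and LANCL1, a glutathione-binding protein, at 0.38, 0.06 and 0.48 and then at -1.14, -0.76 and -1.83. The T cell and natural killer marker sums given above hold genes of these same classes, such as CD3G and KLRK1. They are therefore no separate reading, and their part in the result was not tested.

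Proteins measured by more than 1 probe gave a check within the array. Of 390 proteins with 2 or more tested probes, 310 had all probes on the same side of 0, 79.5%. All probes were higher without overlap for 52 proteins, 13.3%, and lower for 14, 3.59%. Since probes of one protein share their RNA, these are repeat readings and not replicates. The choice of this list was made after the values were seen.

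**Figure D4:**
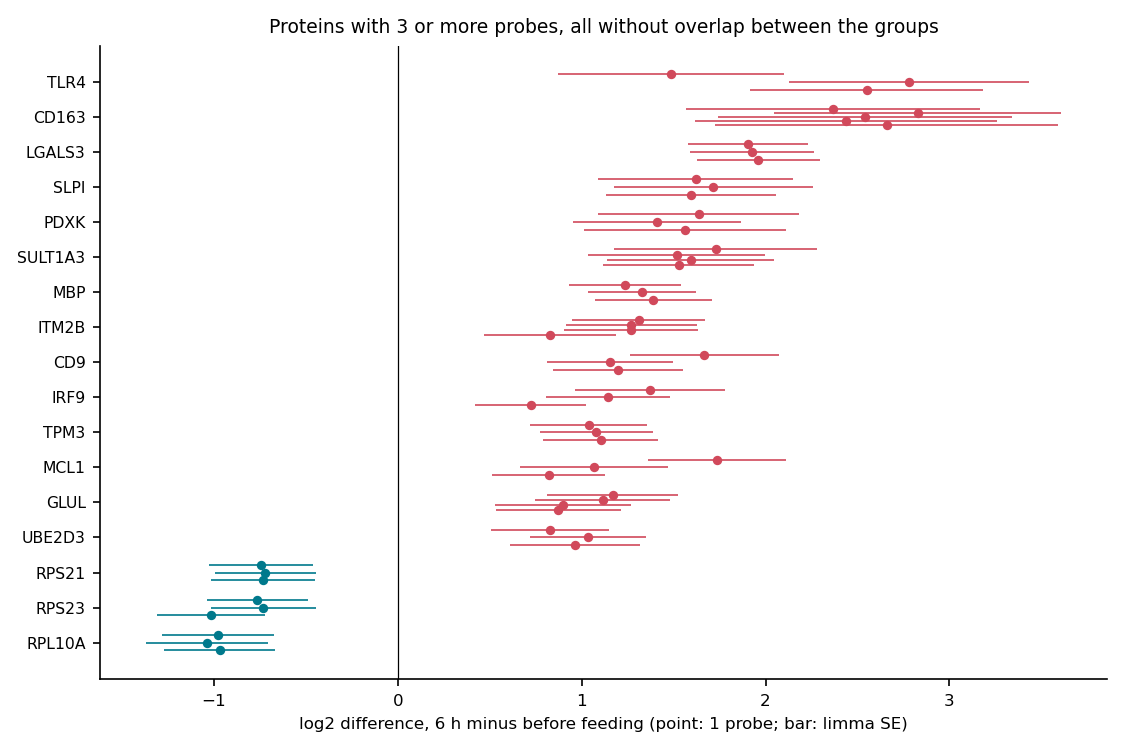
Log2 difference, 6 h minus before feeding, of each probe (points, with the limma SE as bars) for 17 proteins with 3 or more tested probes that all lie on one side without overlap, with a line at 0. Prothymosin alpha, whose description is a library title, and a TLR4 probe described under another name are not drawn. The 5 probes for CD163 lie between 2.37 and 2.83 and the 3 for RPL10A between -1.04 and -0.97.

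Among proteins with 3 or more probes, 14 had all probes higher and 4 had all lower without overlap. The number of proteins with 3 or more probes is not given here, so these counts carry no share. Over the 390 proteins with 2 or more, the shares were 13.3% and 3.59%. CD163, the scavenger receptor by which monocytes and macrophages clear haemoglobin, differed by 2.37 to 2.83 on 5 probes. One of them lay at 1.38, 0.90 and 1.80 before feeding and at 3.15, 2.67 and 5.57 at 6 h, replicate 3 again the highest. SLPI differed by 1.59 to 1.72 on 3 probes, CD9, a tetraspanin of platelets and leukocytes, by 1.15 to 1.67, and IRF9, the DNA-binding part of the interferon-activated complex, by 0.72 to 1.37. Glutamine synthetase (GLUL), which glucocorticoids are known to induce in several tissues, differed by 0.87 to 1.17 on 4 probes. Pyridoxal kinase (PDXK), which activates vitamin B6, differed by 1.41 to 1.64. The 4 with lower values were RPL10A at -1.04 to -0.97, RPS21 at -0.74 to -0.72, RPS23 at -1.02 to -0.73 and prothymosin alpha at -0.70 to -0.40. Ribosomal proteins made up 3 of these 4, and their share among all proteins with 3 or more probes is not given.

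Of the proteins with exactly 2 probes, several are named here. Resistin (RETN), a hormone that human myeloid cells secrete, differed by 2.49 and 2.55. STAT3, a transcription factor downstream of interleukin 6, differed by 1.84 and 2.21, and STAT2, downstream of type I interferon, by 0.88 and 0.96. ITGB2, the beta chain of leukocyte integrins, differed by 1.41 and 1.66. MAOA, a monoamine oxidase of the outer mitochondrial membrane, differed by 1.66 and 1.69. The lower ones included RPS18 at -1.01 and -0.92, RPS29 at -1.19 and -1.18 and DBI, which binds acyl-CoA, at -0.79 and -0.78.

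Some probes without a protein name could be read through their sequence. Of 14183 tested probes without one, 150 shared a run of at least 20 bases with a tested probe that has a pig or mammalian name, 1.06%. In 140 of these, 93.3%, the difference had the same sign as that of the named probe. Of the 33 such probes higher without overlap, 18 named partners were so too, and of the 21 lower, 19 were. The 150 probes have 120 distinct named partners, and 1 of these, a probe described as a tyrosine phosphatase, is the partner of 14 unnamed probes, 10 of them higher without overlap while it is not. Without it, 18 of 23 higher probes had a partner that was so too. No pair went opposite ways without overlap. Of the 144 unnamed probes separated by 1 or more, only 2 shared such a run, so most of the widely separated probes have no name by this route.

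The set with a shared run was printed because 1 named probe and 2 unnamed ones overlap in the same 23 bases, in capitals. A_72_P305059 is described as a mouse fos-like antigen 2 sequence, a subunit of the AP-1 transcription factor, A_72_P240177 is unknown and A_72_P352593 is a clone.

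A_72_P305059: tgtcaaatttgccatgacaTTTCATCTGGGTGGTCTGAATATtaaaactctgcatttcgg
A_72_P240177: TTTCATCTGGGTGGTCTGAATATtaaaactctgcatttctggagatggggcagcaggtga
A_72_P352593: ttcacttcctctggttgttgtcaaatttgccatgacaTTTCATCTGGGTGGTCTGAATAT

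The 3 probes gave nearly the same difference at 6 h, at different levels. A_72_P305059 lay at 3.13, 3.91 and 3.44 before feeding and at 5.21, 5.29 and 6.38 at 6 h, a difference of 2.13 ± 0.41 (SE). A_72_P240177 lay lower, at 2.05, 2.81 and 2.44 and then at 4.17, 4.17 and 5.45, and differed by 2.17 ± 0.43. A_72_P352593 differed by 2.12 ± 0.41. Each was separated by more than 1 and none passed, with adjusted p of 0.0691 for A_72_P240177 and 0.0615 for the others in limma.

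A second set was printed because its probes lie on opposite strands, with a run of 33 bases in capitals of which one is the reverse complement of the other. Both are clones without a protein name, the latter from an ovary library.

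A_72_P158981: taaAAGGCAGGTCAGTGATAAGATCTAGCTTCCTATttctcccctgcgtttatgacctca
A_72_P310323: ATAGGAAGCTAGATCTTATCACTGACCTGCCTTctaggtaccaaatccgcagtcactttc

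A_72_P158981 lay at 0.41, 1.43 and 0.98 before feeding and at 2.89, 2.58 and 3.96 at 6 h. A_72_P310323 lay at 3.15, 4.35 and 3.59 and then at 5.38, 5.49 and 7.02. The differences were, 2.20 ± 0.41 and 2.27 ± 0.50. Which strand is transcribed cannot be read from these values.

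Clone descriptions name the library from which the cDNA came, and this is known for 14 libraries with at least 50 tested probes. The share of higher values without overlap was 16% over all probes. It was 24.0% for spleen (329 probes), 23.1% for lung (324) and 22.6% for alveolar macrophages (398). It was 20.3% for adrenal gland (74), 19.4% for liver (474) and 19.3% for peripheral blood mononuclear cells (176). It was 14% for thymus (602) and 10.53% for mesenteric lymph node (209), and 16.7% for ovary (1085), the largest library. The share of lower values without overlap was 17.2% for mesenteric lymph node and 12% for thymus, and 6.38% for spleen and 7.79% for alveolar macrophages. It was 10.8% for peripheral blood mononuclear cells, against 10.6% of all probes. The libraries were not tested against each other. A library names only where a cDNA was cloned, not the cell that holds its RNA in blood.

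**Figure D5:**
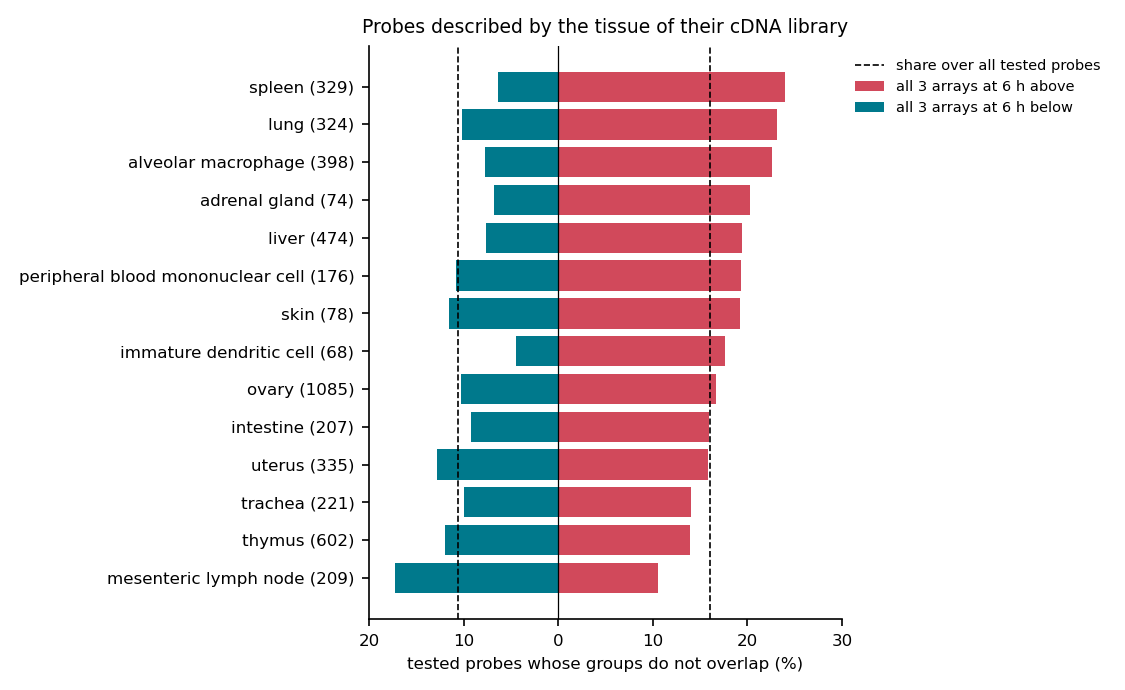
Percent of tested probes described by a cDNA library whose arrays do not overlap, higher at 6 h to the right and lower to the left, with the number of tested probes in brackets and the shares over all tested probes as dashed lines. Spleen shows 24.0% higher and 6.38% lower, and mesenteric lymph node 10.53% higher and 17.2% lower.

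The deposited series-wide values of the same arrays gave the same picture for the widely separated probes. Of 19761 probes in both, 95.0% had differences of the same sign, and differences correlated across probes at 0.993, where probes are not independent. Of 3166 probes higher without overlap, 2746 were so in the deposited values, and of 2092 lower, 2041 were. All 184 and all 21 probes separated by 1 or more also did not overlap there.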

How the data were processed

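Per the file headers, the deposited scanner files hold 1-colour Agilent spot intensity, background-corrected by Feature Extraction 10.5.1.1, while the submitters' processing notes name version 9.5.3.1. Genome builds are not given in the sources used here. The deposited series-wide values are linear by their range, with a normalization between arrays that is not stated by the authors. Taken to log2, they were used as a check.

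Control spots and outlier flags were removed and replicate spots averaged, and 7 of 43603 probes without a usable spot on every array were dropped. Processed signal was taken to log2 and the 75th percentile of each array subtracted. All 9 arrays entered 1 limma fit (3.58.1, R 4.3.3) with group only, 6 residual degrees of freedom and Benjamini-Hochberg adjustment. Tables were made with Python 3.11.15, pandas 2.3.3 and numpy 2.4.6. On simulated data with 19783 probes, limma recovered 41% of probes changed by 2 and 2% of those changed by 1 at 6 h against before feeding. Small changes were therefore mostly beyond its reach.

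Descriptions were sorted into 56 classes by words. Where a class mixed proteins, its parts are given separately, and that split was made after seeing the values. The classes, lists and members were chosen with earlier results of these data known. The rule for named probes took those past the threshold, 25 protein names per direction with the widest separation, and up to 2 probes per class and direction, 195 in all. Of these, the text gives pig entries or mammalian matches of at least 20%, with further class members for contrast, both chosen after their values were seen. Gene names are those of the array's design and can be old. Alternatives were other scalings, background corrections, filters, fits and each array left out, plus 3 chosen after seeing the data. Some results are not reported here.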

Additional observations from a re-analysis of the deposited data

How the results depend on the processing

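The number of probes past the threshold depended on the fit. It was 5 as reported, 8 after quantile normalization and with the deposited series-wide values, and 613 with spike-in centring (607 higher, 6 lower). It was 0 with normexp, with probes required above background on all arrays, with no filter, with only the arrays compared, with trend and robust fitting, and with the percentile taken over detected probes. Array weights, chosen after seeing the data, gave 9889. With each array left out in turn the count ran from 0 to 2396, and that of probes without overlap from 6302 to 9730 against 5262, where fewer arrays make overlap less likely. The cause of these differences between fits was not tested. Same-numbered arrays before feeding and at 6 h had correlations of -0.15, -0.20 and 0.11 in their deviations from the group means. As deviations from means of 3 arrays, they cannot show whether a number stands for the same pig. The fit used group only. With the replicate number as a block, 620 probes passed.

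Of the 79 probes followed by name, 0 reversed direction under any setting run.

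Of 56 class medians, 22 stayed within the spread of the arrays in all 22 settings and 34 did not in at least 1, and the sign turned in some setting for 24. Larger moves among the classes farthest from 0 and the respiratory chain follow. Lectins had 0.43 with normexp. Interferon proteins had 0.79 after quantile normalization, 0.61 with normexp, 0.82 with the deposited values and 0.79 to 1.17 with an array left out. Phospholipases and eicosanoid enzymes had 0.36 with normexp, 0.42 with array weights and 0.34 to 0.83 with an array left out. The tRNA synthetases had -0.20 with spike-in centring and -0.61 with array weights. Splicing factors had -0.34 after quantile normalization, -0.33 with median centring and with the deposited values, and 0.038 with spike-in centring. Complex I had -0.23, -0.26, 0.11 and -0.24 in the same order of quantile, median, spike-in and deposited values, -0.22 with the percentile over detected probes, -0.41 with pig or mammalian names only and -0.28 to -0.076 with an array left out. Cytochrome c oxidase had -0.56 with median centring, -0.19 with spike-in centring and -0.68 with pig or mammalian names. ATP synthase had -0.53 after quantile normalization, -0.058 with spike-in centring, -0.48 with the deposited values, -0.44 with array weights and -0.46 to -0.20 with an array left out.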
